A study of Mus musculus with 4 samples.

Results

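Cytotoxic granule genes and interferon gamma were followed as a set of 10 listed genes, *Gzma*, *Gzmb*, *Gzmk*, *Prf1*, *Nkg7*, *Fasl*, *Klrk1*, *Ifng*, *Tbx21* and *Eomes*, found by symbol among the 32285 genes of the count tables. All 10 were present, each in 1 row. They were measured by droplet single-cell RNA sequencing of leukocytes from the lamina propria of the mouse colon, selected on CD45 with beads, in DSS colitis. DSS (dextran sulfate sodium) damages the gut epithelium, and by the study's methods the mice drank 2% DSS during 7 days, the tissue was taken on day 8, and cells of 3 mice were mixed in each sample. The study used AhR-null mice (B6.129-Ahr tm1Bra/J, which lack the aryl hydrocarbon receptor in all cells) and wild-type littermates housed with them, on a C57BL/6 background. The labels give an age of 10 weeks and DSS treatment for all 4 samples and the methods an age of 8 weeks. The labels do not tie any of the 4 samples to a genotype, so the samples are called 1 to 4, all carry the same treatment, and no comparison between genotypes was made.

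Cytotoxic lymphocytes kill by releasing granules at the contact with a target cell. Perforin, encoded by *Prf1*, makes pores in the target membrane, and granzymes, serine proteases encoded by *Gzma*, *Gzmb* and *Gzmk*, act inside the target. *Nkg7* encodes a granule membrane protein needed for full degranulation. Fas ligand (*Fasl*) kills through a death receptor without granules, and NKG2D (*Klrk1*) is an activating receptor for stress-induced ligands. *Ifng* encodes interferon gamma, the cytokine of type 1 immunity that activates macrophages. T-bet (*Tbx21*) and Eomes are related T-box transcription factors that direct these programmes in NK cells, type 1 innate lymphocytes and T cells.

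The 10 genes lie on 8 chromosomes of the mouse genome (GRCm38, GENCODE M21). *Gzma* (chr13:113093825-113100981, minus strand) and *Gzmk* (chr13:113171608-113225908, minus strand) lie 70.6 kb apart with 3 genes between them, whereas *Gzmb* (chr14:56258838-56262260, minus strand) lies elsewhere. *Prf1* (chr10:61297833-61304680) and *Ifng* (chr10:118441046-118445892) are on the plus strand of the same chromosome. *Nkg7* is at chr7:43437073-43438249 and *Eomes* at chr9:118478212-118486132, both on the plus strand. *Fasl* (chr1:161780689-161788495), *Klrk1* (chr6:129610323-129623864) and *Tbx21* (chr11:97098071-97115331) are on the minus strand. *Gzmk* shares its span with *Esm1*, and the end of *Eomes* overlaps the antisense gene *Gm33460*, in both cases on the opposite strand. *Ifng* overlaps *Gm49751* on its own strand, a gene that is not among those of the count tables.

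Because *Gzma* and *Gzmk* lie near each other on 1 strand, and *Prf1* and *Ifng* were both highest in NK-like cells, the 200 bases before the start of these genes, and of *Gzmb*, are shown from RefSeq (GRCm38.p6), 5′ to 3′ on the gene's own strand. Capitals mark matches on either strand to GGTGTG, the core letters of T-box sites, to TGTGGT, the core of RUNX sites, or to TTCNNNGAA, the palindrome of STAT sites. The windows are chr13:113100982-113101181 for *Gzma*, chr14:56262335-56262534 for *Gzmb*, chr13:113180966-113181165 for *Gzmk*, chr10:61297636-61297835 for *Prf1* and chr10:118440846-118441045 for *Ifng*.
Gzma: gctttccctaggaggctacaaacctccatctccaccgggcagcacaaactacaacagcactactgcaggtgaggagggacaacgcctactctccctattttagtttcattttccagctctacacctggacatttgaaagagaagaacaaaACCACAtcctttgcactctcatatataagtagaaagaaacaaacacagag
Gzmb: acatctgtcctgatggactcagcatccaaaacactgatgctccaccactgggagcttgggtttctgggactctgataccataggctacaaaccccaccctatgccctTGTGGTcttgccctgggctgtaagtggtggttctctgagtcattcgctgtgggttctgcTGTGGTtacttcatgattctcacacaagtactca
Gzmk: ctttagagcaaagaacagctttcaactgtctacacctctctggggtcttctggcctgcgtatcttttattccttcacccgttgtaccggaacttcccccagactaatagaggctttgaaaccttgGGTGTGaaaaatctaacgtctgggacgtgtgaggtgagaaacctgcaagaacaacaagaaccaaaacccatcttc
Prf1: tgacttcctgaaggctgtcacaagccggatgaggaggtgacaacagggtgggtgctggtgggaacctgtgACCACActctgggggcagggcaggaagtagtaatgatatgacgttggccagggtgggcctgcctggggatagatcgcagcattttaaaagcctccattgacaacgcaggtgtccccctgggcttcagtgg
Ifng: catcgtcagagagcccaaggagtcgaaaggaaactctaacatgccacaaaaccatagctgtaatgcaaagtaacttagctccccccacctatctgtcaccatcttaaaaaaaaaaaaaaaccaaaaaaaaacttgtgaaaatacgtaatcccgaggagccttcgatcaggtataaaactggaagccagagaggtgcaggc
In the full set of 10 windows, GGTGTG was present in 3 (*Gzmk*, *Nkg7* and *Fasl*), against 13.3% of 32851 RefSeq promoter windows of the same length. TGTGGT was present in 5 (*Gzma*, *Gzmb*, *Prf1*, *Nkg7* and *Klrk1*), against 11.2% of all windows, and *Gzmb* held it at 2 places. TTCNNNGAA was in none of the 10 and in 5.49% of all windows. RefSeq starts *Gzmk* inside its longer GENCODE span, so the *Gzmk* window and its GGTGTG match lie before the RefSeq start only. The *Nkg7* window also runs into its GENCODE span, which starts at chr7:43437073. Its GGTGTG match, 13 bases before the RefSeq start, lies inside that span. No matches overlapped in these windows, and the *Ifng* window held none of the 3.

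Of 39550 cells kept from the 4 samples, 6951 had lymphoid markers and no markers of another family. They were gated on genes outside the set. The NK-like class (natural killer cells together with type 1 innate lymphocytes) held 454 cells, 95 to 136 a sample. The CD8 T-like class held 998 cells, of which 613 came from sample 2, the CD4 T-like class 1357, the γδ T-like class 427, of which 214 came from sample 2, and the ILC-like class 511. In the 4 samples *Ncr1* was at 89.3 to 258 CPM (counts per 1e6, a gene's UMIs for every 1e6 UMIs of the class in that sample) in NK-like cells and at 0 to 4.04 CPM in CD8 T-like cells, and *Cd3e* was at 0 to 12.3 CPM in NK-like cells and 273 to 420 CPM in CD8 T-like cells. *Ncr1* and the CD3 genes served in the gates, so these values describe the gates and are no independent check of the names. The ILC-like class was mainly type 2: 381 cells rested on *Gata3*, *Il1rl1* and related genes, and 130 mainly on *Il23r* (751 to 1043 CPM). Cells with markers of 2 families, kept out of every class, were 20.1% of the cells of sample 2 and 7.30% to 10.5% of the others. The median cell held 4924 to 6247 UMIs (unique transcript molecules) in the NK-like class, 5485 to 8889 in the CD8 T-like class and 6140 to 11490 in the CD4 T-like class. Any pair of samples shared 23 to 49 cell barcodes, at most 0.423% of the smaller.

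B cells and monocytes and macrophages are given as reference classes. B cells had 4.10, 52.3, 23.2 and 10.1 CPM of *Gzma* in samples 1 to 4, 2.62 to 6.45 CPM of *Ifng* and 4.82 to 9.74 CPM of *Prf1*, at a median of 3952 to 5177 UMIs a cell. When every cell was thinned to 1000 UMIs, 0.210% to 4.18% of B cells had a *Gzma* UMI and 0% to 0.371% an *Ifng* UMI. Monocytes and macrophages, at a median of 5457 to 8768 UMIs, had 30.5 CPM of *Gzma* in sample 2 and at most 3.90 CPM in the others, 0.536 to 1.81 CPM of *Ifng* and 0.278 to 0.993 CPM of *Prf1*. For each of *Gzma*, *Ifng* and *Prf1*, the B-cell level was thus above that of monocytes and macrophages in 4 of 4 samples. The part of free RNA in these levels was not tested. The values below are sums over cells. Intervals are 95% exact intervals of UMI or cell counts, and they cover counting error only. Cells of a sample are not replicates and the UMIs of a cell are not independent, so the intervals are too narrow for a difference between animals. No p-value is given for a difference between classes, since an exact sign-flip test over 4 samples cannot pass 0.05. In a sum, fewer expressing cells and less RNA per cell cannot be told apart, so shares of cells are given for each gene, though not for every class.

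Among the NK-like, CD8 T-like, CD4 T-like, γδ T-like and ILC-like classes, 6 of the 10 genes were highest in NK-like cells in 4 of 4 samples: *Prf1*, *Eomes*, *Tbx21*, *Ifng*, *Klrk1* and *Fasl*. *Gzmk* was the only gene of the set highest in CD8 T-like cells in every sample. *Gzma*, *Gzmb* and *Nkg7* had no class that was highest throughout. How many of all genes were highest in a given class was not counted, so these counts describe the set only.

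**Figure D1:**
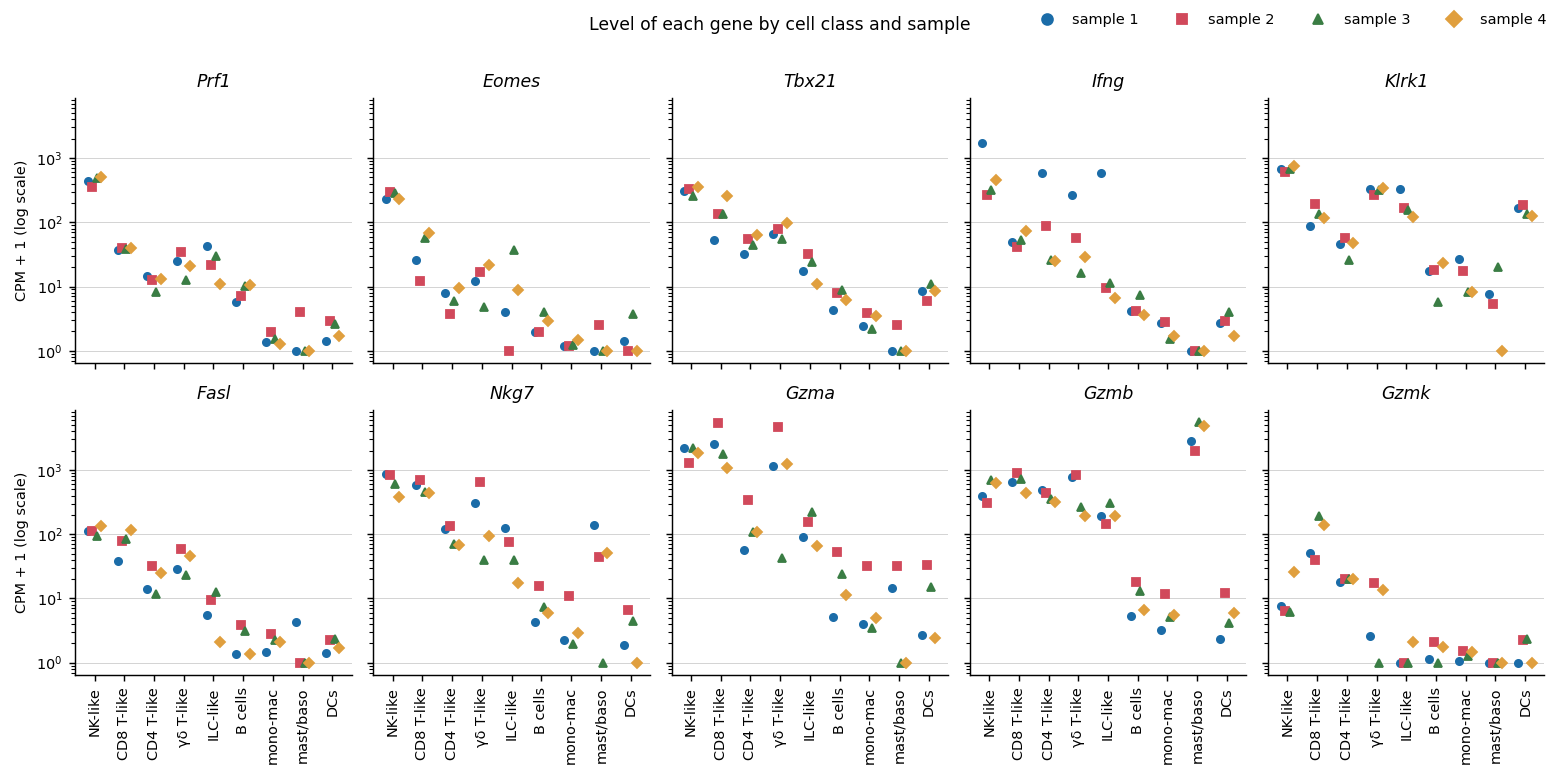
Level of each of the 10 genes (CPM + 1, log scale) in 9 cell classes, 1 point per sample. *Prf1*, *Eomes* and *Ifng* are highest in the NK-like class in all 4 samples, *Gzmk* in the CD8 T-like class, and *Gzmb* has its highest levels, 1987 to 5604 CPM, in mast cells and basophils.

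*Prf1*, the pore former, was at 443, 354, 491 and 501 CPM in the NK-like class of samples 1 to 4. In the CD8 T-like class it was at 36.0, 38.6, 37.5 and 39.4 CPM. The values of the 4 samples lay close together in each class and did not overlap between the classes. The NK-like level was 12.3 (8.79 to 17.6), 9.17 (7.43 to 11.3), 13.1 (9.95 to 17.5) and 12.7 (9.76 to 16.8) times the CD8 T-like level. γδ T-like cells had 11.6 to 33.8 CPM, ILC-like cells 9.93 to 41.1 CPM and CD4 T-like cells 7.29 to 13.6 CPM. Of NK-like cells, 52.9% to 75.7% had a *Prf1* UMI. At 1000 UMIs a cell the shares were 27.9% to 32.6% of NK-like cells, 2.13% to 6.45% of CD8 T-like cells, 0.544% to 1.67% of CD4 T-like cells, 0.560% to 1.33% of B cells and 0.0446% to 0.112% of monocytes and macrophages. The CD4 T-like share was above that of B cells in samples 1 and 2 and below it in samples 3 and 4. In B cells the sum of 270 *Prf1* UMIs was 0.682 for each *Nkg7* UMI, whereas the ratio was 0.179 over all lymphoid cells and plasma cells had a ratio of 0.825.

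*Gzma* encodes a tryptase-like granzyme. NK-like cells had 2170, 1303, 2173 and 1828 CPM. CD8 T-like cells had 2547, 5452, 1787 and 1066 CPM. γδ T-like cells had 1153, 4706, 41.2 and 1237 CPM. The NK-like level was thus more even than the T-cell levels, and sample 2 was the highest for both T-cell classes and the lowest for NK-like cells. The NK-like to CD8 T-like ratio was 0.852 (0.803 to 0.903) and 0.239 (0.222 to 0.257) in samples 1 and 2 and 1.22 (1.15 to 1.29) and 1.72 (1.59 to 1.85) in samples 3 and 4. CD4 T-like cells had 55.8 to 338 CPM and ILC-like cells 65.1 to 223 CPM, and in each sample both lay above B cells. The CD8 T-like level of sample 1 rested on few cells: the cell with most *Gzma* held 1258 UMIs, 46.9% of the class, and without the 3 highest cells the level was 551 CPM instead of 2547. In sample 2 leaving out 3 cells moved it only from 5452 to 5207 CPM. At 1000 UMIs a cell, *Gzma* was detected in 37.5% to 61.5% of NK-like cells and in 17.0% to 59.5% of CD8 T-like cells. In the γδ T-like class, 10 of 59, 132 of 214, 6 of 56 and 27 of 98 cells had a *Gzma* UMI in samples 1 to 4. The 10% of γδ T-like cells with most *Gzma* held 42.1% to 100% of that class's *Gzma* UMIs.

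*Gzmb*, the caspase-activating granzyme, was more evenly spread over classes. NK-like cells had 399, 307, 704 and 627 CPM and CD8 T-like cells 639, 901, 710 and 438 CPM. CD4 T-like cells had 479, 431, 351 and 318 CPM. The ranges of the NK-like and CD4 T-like classes overlapped, and the NK-like level was higher than the CD4 T-like level in 2 of 4 samples. γδ T-like cells had 774, 845, 260 and 194 CPM, higher in samples 1 and 2 than in samples 3 and 4. ILC-like cells had 146 to 304 CPM, which came from few cells, with 8.74% to 15.4% of them positive.

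*Gzmk*, a granzyme of memory T cells, was at 50.3, 38.2, 191 and 138 CPM in CD8 T-like cells. NK-like cells had 6.57, 5.44, 5.10 and 24.5 CPM from 3 to 14 UMIs. The CD8 T-like values of samples 3 and 4 were above those of samples 1 and 2, and each was above every NK-like value. CD4 T-like cells had 16.9 to 19.1 CPM. A *Gzmk* UMI was found in 66.1% and 53.9% of CD8 T-like cells of samples 3 and 4 and in 18.1% and 15.7% of samples 1 and 2. The order of *Gzmk* over samples within the CD8 T-like class was thus not that of the *Gzma* sum, which was highest in samples 2 and 1. The *Gzma* sum of sample 1 rested on few cells. A *Gzma* UMI was found in 24.5%, 71.3%, 58.9% and 46.1% of CD8 T-like cells of samples 1 to 4.

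*Nkg7* was at 878, 849, 606 and 375 CPM in NK-like cells and at 586, 700, 460 and 442 CPM in CD8 T-like cells. The NK-like to CD8 T-like ratio was 0.849 in sample 4 and 1.21 to 1.497 in the others. γδ T-like cells ranged from 38.6 CPM in sample 3 to 656 CPM in sample 2, and CD4 T-like cells from 67.3 to 135 CPM. An *Nkg7* UMI was found in 77.7% to 92.7% of CD8 T-like cells and in 69.5% to 93.3% of NK-like cells, the broadest detection of the set in CD8 T-like cells.

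*Fasl* was at 113, 112, 94.4 and 135 CPM in NK-like cells and at 37.0, 77.2, 82.6 and 116 CPM in CD8 T-like cells. The NK-like excess over CD8 T-like cells was 3.05-fold (2.09 to 4.53) in sample 1 and 1.46-fold (1.09 to 1.91) in sample 2, and in samples 3 and 4 the intervals of the ratio included 1 (0.848 to 1.53 and 0.884 to 1.52). With the mean over cells in place of the sum, *Fasl* was no longer highest in NK-like cells in every sample. A *Fasl* UMI was found in 42.65%, 40.4%, 37.8% and 49.5% of NK-like cells of samples 1 to 4. In CD8 T-like cells the shares were 24.5%, 32.6%, 50.8% and 57.5%, above NK-like cells in samples 3 and 4. In thinned cells they were 11.1%, 8.65%, 12.7% and 15.8% of NK-like cells. Of thinned CD8 T-like cells they were 3.19%, 8.01%, 12.9% and 12.6%, higher only in sample 3. CD4 T-like cells had 10.9 to 30.5 CPM.

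*Klrk1* was at 682, 602, 667 and 759 CPM in NK-like cells, with 80.8% to 87.4% of cells positive, and no other gene of the set was as even over samples there. CD8 T-like cells had 85.4, 192, 135 and 118 CPM. γδ T-like cells had 334, 263, 319 and 335 CPM, 1.37 to 3.91 times the CD8 T-like level and in each sample with an interval above 1. *Klrk1* was the only gene of the set for which γδ T-like cells were above CD8 T-like cells in 4 of 4 samples. ILC-like cells had 330, 169, 154 and 119 CPM, and CD4 T-like cells 24.9 to 55.5 CPM. Within the ILC-like class, *Klrk1* was at 391, 168, 363 and 407 CPM in the 28 to 35 cells of the *Il23r* type and at 297, 169, 63.7 and 57.6 CPM in those of type 2, so the types were apart in samples 3 and 4 (5.70 and 7.07 times) and not in samples 1 and 2 (1.32 and 0.990 times, intervals including 1).

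The T-box factors were not distributed alike. *Eomes* was at 228, 296, 288 and 233 CPM in NK-like cells and at 24.7, 11.0, 55.7 and 67.3 CPM in CD8 T-like cells, a ratio of 9.24, 26.9, 5.18 and 3.46. γδ T-like cells had 3.86 to 20.8 CPM and CD4 T-like cells 2.78 to 8.39 CPM. *Tbx21* was at 307, 327, 259 and 356 CPM in NK-like cells and at 52.2, 134, 134 and 257 CPM in CD8 T-like cells, a ratio of 5.88, 2.45, 1.93 and 1.39. It was also present in γδ T-like cells at 54.0 to 95.7 CPM and in CD4 T-like cells at 31.3 to 61.6 CPM. In B cells *Tbx21* summed to 5.27 CPM. For *Eomes* the NK-like range lay above the CD8 T-like range without overlap. For *Tbx21* the 2 ranges met. The lowest NK-like value was 259 CPM (224 to 297, sample 3) and the highest CD8 T-like value 257 CPM (234 to 282, sample 4).

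*Ifng* was at 1689, 267, 319 and 456 CPM in NK-like cells. It was at 48.4, 40.2, 52.5 and 71.9 CPM in CD8 T-like cells. Each NK-like value was above every CD8 T-like value, and the ratio was 34.9 (26.4 to 47.1) in sample 1 and 6.07 to 6.64 in the other samples. CD4 T-like cells had 587, 87.4, 25.0 and 23.8 CPM, γδ T-like cells 268, 55.1, 15.4 and 27.5 CPM, and ILC-like cells 579, 8.33, 10.2 and 5.51 CPM. Sample 1 was the highest of the 4 samples in each of these classes except the CD8 T-like class, where sample 4 was. At 1000 UMIs a cell, *Ifng* was detected in 21.2% to 35.6% of NK-like cells, 2.13% to 8.38% of CD8 T-like cells, 2.11% to 5.83% of CD4 T-like cells and at most 0.371% of B cells.

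The high sample 1 values of *Ifng* in the CD4 T-like, γδ T-like and ILC-like classes came mostly from single cells. In the CD4 T-like class, 1 cell without *Foxp3* held 1098 *Ifng* UMIs of its 21751, that is 5.05% of its transcripts and 75.1% of the class's *Ifng*. Without that cell the class was at 147 CPM, and without its 3 highest cells at 50.2 CPM instead of 587. In the γδ T-like class the highest cell held 149 of 166 UMIs and the level without it was 28.1 CPM. In the ILC-like class the highest cell, one with *Il23r*-type markers, held 294 of 381 UMIs, and without the 3 highest cells the level was 30.3 CPM. In contrast, NK-like cells of sample 1 were still at 1022 CPM without their 3 highest cells, above the 219 to 243 CPM of the other samples treated the same way. Single cells also weighed in sample 2, where 1 CD4 T-like cell held 106 of the class's 252 *Ifng* UMIs and 1 γδ T-like cell 47 of 93.

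Cells with 10 or more *Ifng* UMIs numbered 66 in sample 1 and 16, 13 and 12 in samples 2 to 4. Those 66 cells, 0.659% of the sample's cells, held 83.2% of its *Ifng* UMIs. In the other samples such cells held 18.1% to 28.4%. Of the 66, 30 were NK-like, 5 CD4 T-like, 3 ILC-like, 2 γδ T-like and 1 CD8 T-like, and 13 carried markers of a second family. The number of cells with any *Ifng* UMI was 467 in sample 1, within the 442 to 792 of the others.

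**Figure D2:**
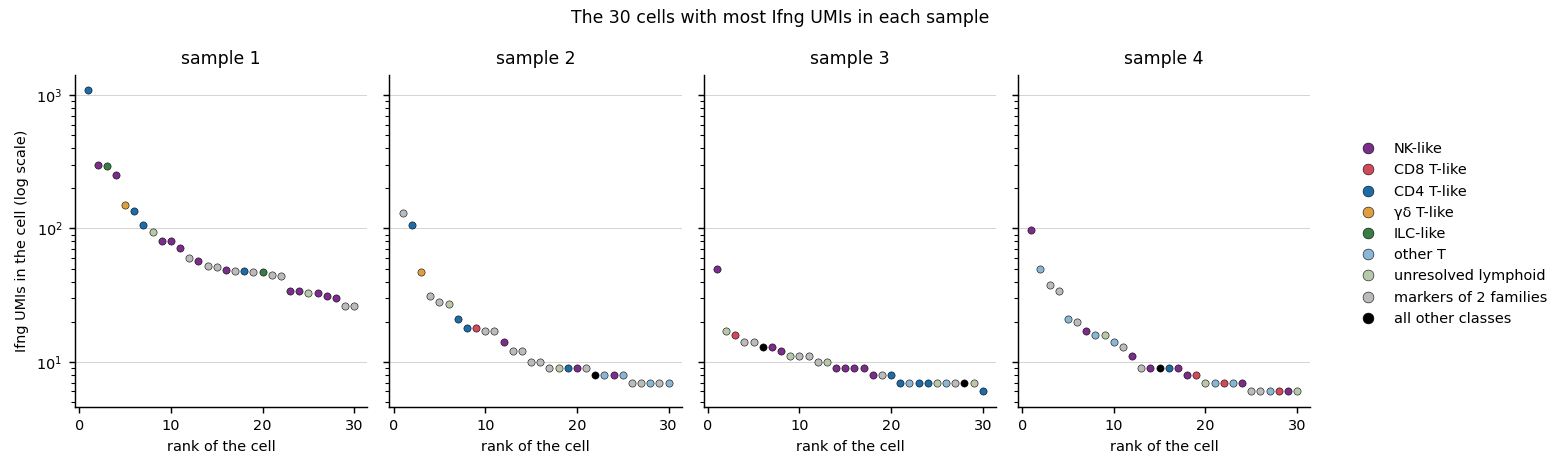
*Ifng* UMIs (log scale) in the 30 cells with most *Ifng* UMIs in each sample, by rank and coloured by class. Sample 1 has 1 CD4 T-like cell at 1098 UMIs and a long row of NK-like cells. The highest cells of samples 2, 3 and 4 hold 131, 50 and 98 UMIs.

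Within a class, most *Ifng* lay in few cells. The 10% of NK-like cells with most *Ifng* held 51.7% to 71.3% of the class's *Ifng* UMIs. For *Klrk1* the corresponding cells held 28.0% to 37.2% and for *Nkg7* 28.4% to 45.3%. In CD4 T-like cells without *Foxp3* they held 67.9% to 99.5% of *Ifng* and 97.0% or more of *Gzma*. Such shares depend on a gene's count per cell and rank no genes.

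The classes were compared gene by gene across all genes with at least 10 CPM in either class, calling a gene that was at least 2-fold higher in the first class in 4 of 4 samples. NK-like cells were that much above CD4 T-like cells for 8 of the 10 genes (not *Gzmb* and *Gzmk*), where 374 of 8398 genes (4.45%) were called. CD8 T-like cells were above CD4 T-like cells for 5 (*Gzma*, *Prf1*, *Nkg7*, *Fasl* and *Eomes*), with 1.16% of genes called. *Gzmk* and *Klrk1* missed this call by little, with lowest ratios of 1.999 and 1.93. NK-like cells were above CD8 T-like cells for 4 (*Prf1*, *Klrk1*, *Ifng* and *Eomes*), with 2.90% of genes called. In the opposite direction only *Gzmk* was called among the set, with 3.04% of genes called (253, and 389 when sample 2 was left out). All 10 genes passed the level filter in each comparison. The set was listed for its cytotoxic genes, so the counts describe where they lie.

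The share of each gene's UMIs found in a class depends on the number of its cells as well as on their level. NK-like cells, 0.880% to 1.36% of the cells of a sample, held 14.1% to 40.9% of all *Prf1* UMIs, 19.8% to 40.4% of *Eomes* and 7.69% to 31.9% of *Ifng*. In each case sample 2 or sample 4 had the lowest share and sample 1 the highest. CD8 T-like cells held 24.1% to 38.7% of *Gzma*. For *Gzmb*, CD4 T-like cells with *Foxp3* held 5.50% to 25.2%, more than NK-like cells in each sample. T cells that met none of the T-cell gates held 6.88% to 13.3% of *Prf1*, 3.79% to 17.9% of *Ifng* and 11.9% to 22.2% of *Tbx21*. The cells with markers of 2 families held a median of 19.6% (*Klrk1*) to 27.1% (*Fasl*) of the UMIs. Over the samples they held 19.55% to 37.5% of *Prf1*, 14.5% to 36.6% of *Eomes* and 13.5% to 44.9% of *Ifng*.

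**Figure D3:**
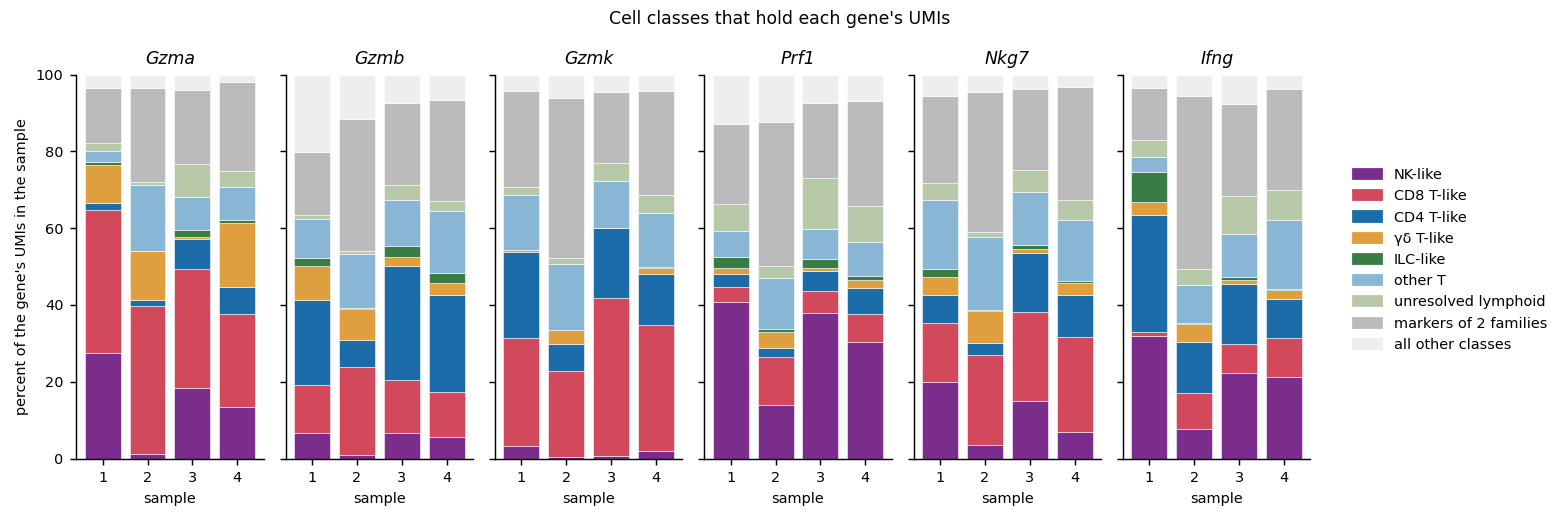
Percent of each gene's UMIs in a sample that lie in each class (stacked bars, 1 per sample, 6 genes). The NK-like part is 14.1% to 40.9% for *Prf1* and 7.69% to 31.9% for *Ifng*, while CD8 T-like cells hold 24.1% to 38.7% of *Gzma*, and grey marks cells with markers of 2 families.

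The NK-like class was split by genes outside the set. Cells with *Itga2*, *Itgam*, *S1pr5* or *Klrg1*, markers of circulating NK cells, and none of *Itga1*, *Cxcr6* or *Il7r*, markers of tissue type 1 cells, numbered 20 to 42 a sample, and the opposite pattern 16 to 44. In the circulating part *Gzma* was at 3399, 2540, 3040 and 2992 CPM, and in the tissue part at 703, 522, 339 and 432 CPM. The ranges were far apart, and the ratio was 4.83 to 8.96. *Prf1* was at 858, 764, 662 and 808 CPM against 175, 126, 293 and 210 CPM. *Gzmb* (3.32 to 6.23 times) and *Eomes* (2.14 to 4.52 times) were also higher in the circulating part in 4 of 4 samples, each with its interval above 1. *Nkg7* was 1.29 to 1.82 times higher. *Klrk1* was lower in the circulating part in 4 of 4 samples, with ratios of 0.483 to 0.941, but the interval lay below 1 only in sample 3 (0.376 to 0.623). *Tbx21* ratios (0.431 to 1.39) and *Fasl* ratios (0.724 to 1.98) lay on both sides of 1. *Ifng* was 2.40 to 4.59 times higher in the circulating part in samples 2 to 4 and at 1016 and 1030 CPM in the 2 parts in sample 1. Part of this rested on single cells: in the circulating part 1 cell held 98 of 157 *Ifng* UMIs in sample 4 and 1 held 50 of 120 in sample 3. Without the cell with most *Ifng* in each part, the ratio was 3.04 in sample 4, 1.90 in sample 3, 2.33 in sample 2 and 1.20 in sample 1. A further 153 NK-like cells had neither list's markers and 49 had both.

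Within the CD8 T-like class, cells with *Cd8b1* (510, of the CD8αβ type) and cells with *Cd8a* alone (488, of which 396 came from sample 2) were set side by side. *Gzma* was at 620, 3032, 1980 and 1130 CPM with *Cd8b1* and at 5032, 7334, 431 and 716 CPM with *Cd8a* alone. By sums the *Cd8a*-only cells were thus higher in samples 1 and 2 and lower in samples 3 and 4, where they numbered 22 and 33. In sample 1 they numbered 37, and without the 3 highest their level was 443 CPM instead of 5032, so that sum rested on few cells. Cells with *Cd8a* alone had no *Cd8b1* UMI, so cells whose *Cd8b1* was missed may be among them. *Klrk1* was 1.29 to 2.45 times higher with *Cd8a* alone in 4 of 4 samples, with each interval above 1. *Eomes* was at 42.1, 16.4, 58.6 and 69.6 CPM with *Cd8b1* and at 2.17, 6.78, 35.1 and 54.8 CPM with *Cd8a* alone, from 1 to 17 UMIs. *Gzmk* was 0.229 to 0.822 times the *Cd8b1* level. *Itgae*, an integrin gene of intraepithelial lymphocytes chosen here after its values were seen, was at 110 to 283 CPM with *Cd8a* alone and 23.6 to 177 CPM with *Cd8b1*. Sample 2 also had the most epithelial cells, 128 against 26 to 64 in the others. As a share of the sample's cells they were 1.08% (0.904% to 1.29%) in sample 2 and 0.849% (0.654% to 1.08%) in sample 4. In samples 1 and 3 they were 0.409% and 0.256%. The part of epithelial cells in the result was not tested.

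*Gzmb* was the only gene of the set that was higher in CD4 T-like cells with *Foxp3*, the factor of regulatory T cells, than in those without in 4 of 4 samples. It was at 923, 990, 495 and 431 CPM with *Foxp3* and at 229, 144, 132 and 156 CPM without. The values did not overlap, and the ratio was 4.02 (3.55 to 4.56), 6.90 (6.03 to 7.92), 3.77 (3.37 to 4.22) and 2.77 (2.45 to 3.14). In the *Foxp3*-positive cells 64.5% to 74.7% had a *Gzmb* UMI, and at 1000 UMIs a cell 29.9% to 42.7%, against 6.86% to 8.97% of the *Foxp3*-negative cells. *Ifng*, *Tbx21*, *Nkg7*, *Fasl* and *Gzmk* were lower with *Foxp3* in 4 of 4 samples, with ratios of 0.151 to 0.367 for *Ifng* and 0.0566 to 0.254 for *Fasl*. *Klrk1* was also lower in 4 of 4 samples, with ratios of 0.365 to 0.910 and the interval below 1 in 3 of them. *Prf1* was at 4.74 to 15.6 CPM in these cells, against 4.82 to 9.74 CPM in B cells.

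**Figure D4:**
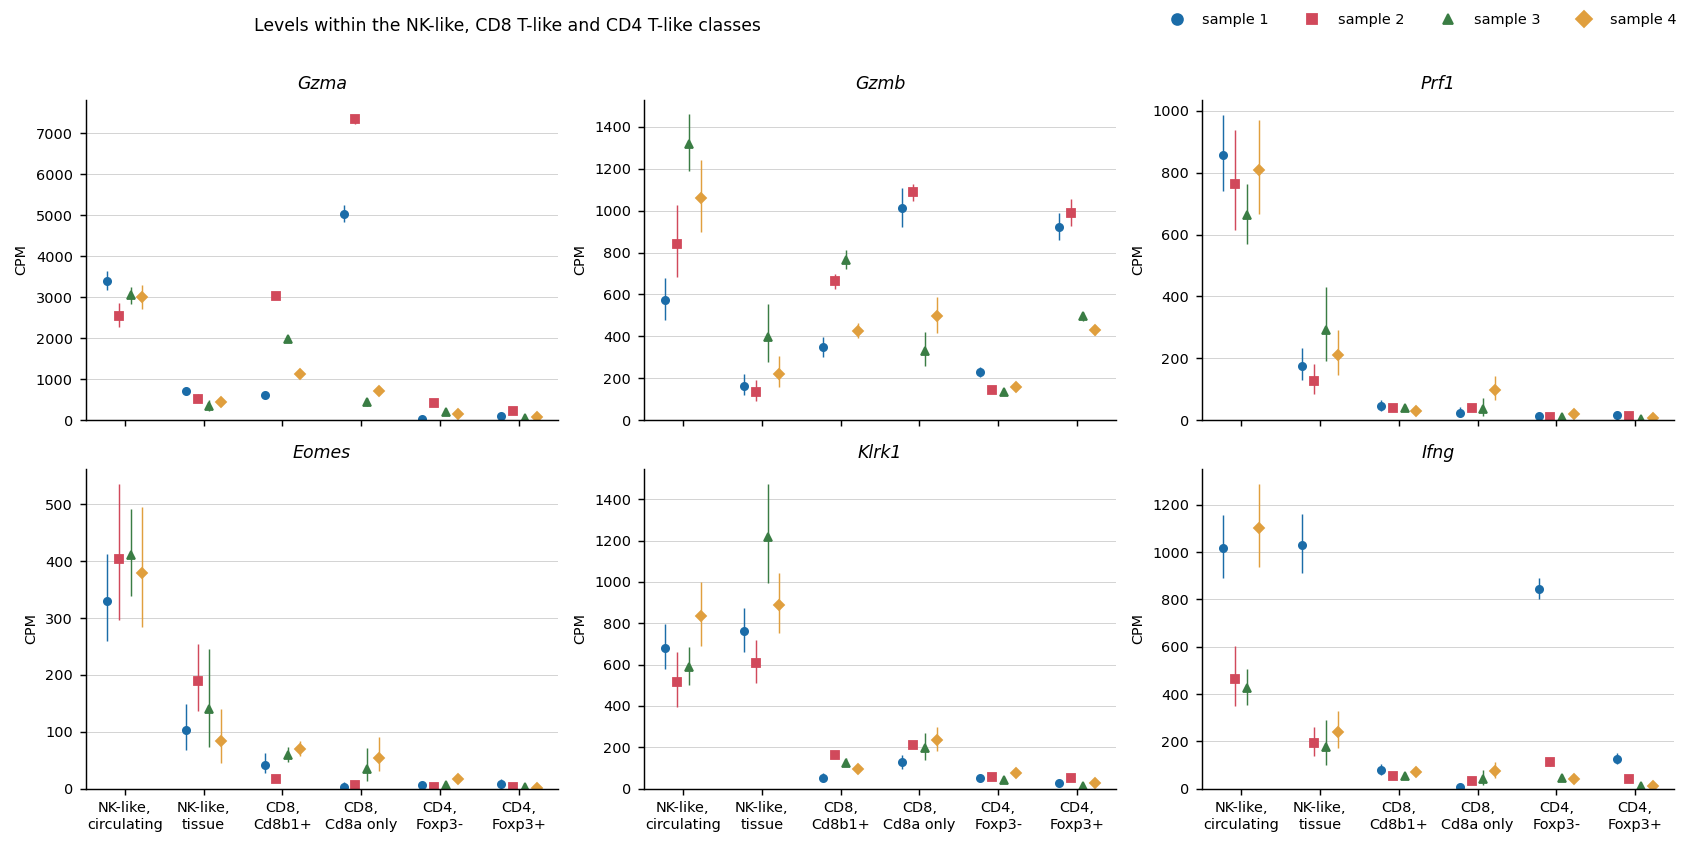
Levels (CPM, linear scale, with 95% exact Poisson intervals) of 6 genes in parts of the NK-like, CD8 T-like and CD4 T-like classes, 1 point per sample. *Gzma* and *Prf1* are higher in NK-like cells with circulating markers than in those with tissue markers, and *Gzmb* is higher in CD4 T-like cells with *Foxp3* than in those without.

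In single NK-like cells the granule genes were found together. A *Prf1* UMI was present in 93.0%, 76.4%, 83.0% and 90.9% of NK-like cells with *Gzma*, and in 27.8%, 26.5%, 44% and 30% of those without. In CD8 T-like cells the shares were 24.7% to 47.95% with *Gzma* and 7.84% to 11.3% without. *Gzmk* was found in 82.2% and 76.6% of the *Gzma*-positive CD8 T-like cells of samples 3 and 4, and in 52.2% and 18.1% of those of samples 1 and 2. Of the *Gzma*-negative CD8 T-like cells, 43.1% and 34.4% had *Gzmk* in samples 3 and 4, and 7.04% and 9.66% in samples 1 and 2. *Ifng* was found in 64.0% to 84.5% of NK-like cells with *Prf1* and in 21.2% to 46.7% of those without. Cells with more UMIs give more of every gene, so these shares describe joint detection.

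Genes of the set were also found outside the lymphoid classes. *Gzmb* was at 2845, 1987, 5604 and 4829 CPM in mast cells and basophils (29, 72, 10 and 8 cells), above each lymphoid class of the same sample. In these cells *Gzmb* had 36.8 UMIs for each *Nkg7* UMI against 1.53 in lymphoid cells, and the 119 cells held no UMI of *Ifng* or *Gzmk*, which allows up to 3 UMIs of each. The part of free RNA in these counts was not tested. The level was found both in cells with more *Tpsb2* and *Cpa3* than *Mcpt8* (2028 to 6644 CPM), of the mast cell type, and in cells with *Mcpt8* (1987 to 7931 CPM from 1 to 14 cells), of the basophil type. *Klrk1* was at 166, 185, 132 and 124 CPM in dendritic cells, against 7.29 to 26.2 CPM in monocytes and macrophages and 4.73 to 22.1 CPM in B cells. Dendritic cells had 55.3 *Klrk1* UMIs for each *Nkg7* UMI, against 0.633 in lymphoid cells. It was found in dendritic cells with *Xcr1* or *Clec9a* (143 to 270 CPM), with *Cd209a* (124 to 312 CPM) and with *Fscn1* (84.6 to 151 CPM).

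The genes with the most similar profile to each member were taken over 44 profiles of log2(CPM + 1), 11 classes in 4 samples each, leaving out genes that reached 20 CPM in none of them. The classes had at least 50 cells in each sample, so mast cells and basophils, where *Gzmb* was highest, were not among them. Profiles of 1 sample share a library, and several of the genes found also served as gate markers. *Gzma* was closest to *Nkg7* (r = 0.951), *Ctsw* (0.927) and *Gzmb* (0.912), and *Nkg7* to *Ctsw* (0.972), *Gzma* (0.951) and *Cd96* (0.950). Over these classes, without mast cells and basophils, *Gzmb* was closest to the T-cell genes *Trbc1* (0.978), *Skap1* (0.969) and *Tigit* (0.966). *Prf1* was closest to *Klrb1c* (0.943), *Sult2b1* (0.934) and *Rsbn1l* (0.927), *Eomes* to *Samd3* (0.946), *Klrc3* (0.933) and *Klrc2* (0.913), and *Tbx21* to *Gm43065* (0.959), *Il12rb2* (0.953) and *Klrc1* (0.951). *Ifng* was closest to *Xcl1* (0.898), a chemokine gene, then *Prf1* (0.889) and *Txk* (0.887). *Fasl* was closest to *Tbx21* (0.946), *Klrc1* (0.944) and *Sla2* (0.943), *Klrk1* to *Car2* (0.921), *Osbpl3* (0.909) and *Clnk* (0.908), and *Gzmk*, with the lowest values, to *Baiap3* (0.838), *Cxcr3* (0.831) and *Trac* (0.830). Within the set, *Gzmk* and *Klrk1* were the least alike (r = 0.428) and *Gzma* and *Nkg7* the most.

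Other genes of these pathways were read from lists. Of 7 other granzyme genes only *Gzmc* passed the level filter, and it was called in NK-like over CD4 T-like cells, at 28.1 to 129 CPM against 1.04 to 6.0 CPM. Of the 9 tested genes of granule packaging and release, 1 was called, the cathepsin *Ctsw* (102 to 256 CPM in NK-like, 138 to 202 in CD8 T-like and 12.4 to 39.2 in CD4 T-like cells). *Cst7*, a cystatin gene, came next by ratio with 22.8 to 52.6 CPM in NK-like and 14.6 to 23.6 CPM in CD4 T-like cells. At the other end were *Rab27a* (31.8 to 105 against 60.03 to 122 CPM) and *Stx11* (147 to 247 against 252 to 403 CPM), factors of granule docking and fusion. The serpins that inhibit granzymes were called in NK-like over CD4 T-like cells for 3 of 4: *Serpinb9*, the inhibitor of granzyme B, was at 669 to 891 CPM in NK-like, 163 to 285 in CD8 T-like and 58.6 to 75.3 in CD4 T-like cells, and *Serpinb6b* at 442 to 550, 176 to 286 and 81.6 to 99.9 CPM. *Serpinb9b* was the third, at 19.96 to 92.1 CPM in NK-like and at most 0.429 CPM in CD4 T-like cells, and *Serpinb6a* was not called (19.1 to 30.9 against 31.3 to 53.3 CPM). Close relatives such as *Serpinb9* and *Serpinb9b*, or *Klrc1* and *Klrc2*, may share reads, so their split is uncertain.

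None of the 4 tested death ligand genes was called in NK-like over CD4 T-like cells, among them the TRAIL gene *Tnfsf10* (5.48 to 29.0 against 4.68 to 16.3 CPM) and *Cflar*, an inhibitor of death receptor signalling (54.4 to 139 against 102 to 225 CPM). In the NKG2D list, which also holds genes of the CD94/NKG2 receptors, 4 of 7 tested genes were called. *Klrc2* (181 to 238 against 6.94 to 16.4 CPM) and *Klrd1* (190 to 446 against 11.0 to 49.97 CPM), which encode receptors of the CD94/NKG2 group, had the highest ratios. The other called genes were *Klrc1*, of the same CD94/NKG2 group, and the adaptor gene *Tyrobp*. *Hcst*, which encodes the NKG2D adaptor DAP10, was not called, at 233 to 324 CPM against 140 to 185 CPM, nor was the ligand gene *Raet1e* (63.5 to 105 against 89.0 to 116 CPM). Of 10 genes of interferon gamma induction and reception, 2 were called, the interleukin receptor genes *Il12rb2* (420 to 1025 CPM against 72.4 to 296 CPM) and *Il18rap* (541 to 1029 CPM against 161 to 250 CPM). *Ifngr2*, a subunit of the interferon gamma receptor, was lower in NK-like cells, at 2.19 to 10.9 CPM against 13.8 to 48.4 CPM in CD8 T-like cells, and was called in that direction. Of 6 tested transcription factors, 2 were called, *Runx3* (541 to 707 CPM against 143 to 162 CPM) and *Bhlhe40* (1009 to 1251 CPM against 292 to 497 CPM), both also called over CD8 T-like cells. *Prdm1* was at 47.2 to 63.1 CPM in NK-like and 60.7 to 127 CPM in CD4 T-like cells. *Hopx* was at 71.4 to 109 CPM in NK-like and 145 to 226 CPM in CD4 T-like cells.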

How the data were processed

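The 4 libraries were prepared with the 10x platform. The deposited values are UMI counts of each gene in each cell, as the authors' Cell Ranger run wrote them, with no normalization. The submitters' processing notes name Cell Ranger 5.0.0, STAR, Seurat and mm10, and the matrix headers name Cell Ranger 7.0.1. The tables held 11425, 13730, 11581 and 8493 cells and 72509408 to 135516016 UMIs a sample.

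Cells with at least 200 genes and under 20% mitochondrial UMIs were kept. Doublets were scored by the Scrublet method, rewritten with numpy 2.4.6 and scikit-learn 1.9.0, and the highest scores, 0.8% of cells per 1000 cells, were removed, leaving 10020, 11824, 10167 and 7539 cells. A cell was given the lineage with most markers (at least 3 UMIs and 0.1 of the median share of the 200 highest cells). Cells positive for lineages of 2 families were set apart as mixed. *Pecam1*, *Ccr7* and *Ccr9* were left out of the lineage scores, because T cells hold them. Of the lymphoid cells, T cells had at least 2 UMIs of *Cd3e*, *Cd3d* and *Cd3g*. γδ T-like cells had at least 2 *Trdc* UMIs and more *Trdc* than *Trac*. CD8 T-like cells had at least 2 *Cd8a* and *Cd8b1* UMIs and no *Cd4*, and CD4 T-like cells at least 1 *Cd4* UMI and no CD8. NK-like cells had at most 1 CD3 UMI, at least 2 UMIs of *Ncr1*, *Klrb1c*, *Klre1*, *Klra4*, *Klra7*, *Klra8* and *Klra9*, under 3 UMIs of ILC2 markers and under 2 of ILC3 markers. ILC-like cells had as little CD3 and at least 2 UMIs of ILC3 markers, or at least 3 of ILC2 markers with more than *Gata3* among them and under 2 NK UMIs. The gates were set on these files, and no gene of the set was used.

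CPM were computed from summed UMIs, with exact Poisson and binomial intervals and exact conditional intervals of ratios (95%). The 2-fold call was also run on simulated Poisson counts with no added spread between samples or cells. Such counts cannot show how the call behaves where few cells hold most UMIs of a gene. Genes named as similar were the 3 with the highest Pearson r for each member, and related genes came from lists, gate genes left out. Up to 4 genes were named per list, those with the highest and lowest ratio of NK-like to CD4 T-like CPM, and other called genes were named after their values were seen. Promoters and positions came from RefSeq and GENCODE M21. The members and lists were chosen with earlier results of these data known. All samples stayed without a group, since the labels give none.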

Additional observations from a re-analysis of the deposited data

How the results depend on the processing

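The number of genes highest in NK-like cells in 4 of 4 samples was 6 as reported and 6 with no doublets removed, with under 10% mitochondrial UMIs, with at least 500 genes a cell, with a gate of 2 times the marker UMIs, and with mixed cells assigned to their highest lineage, each time the same genes. It was 5 with the mean over cells, where *Fasl* was lost. Leaving out the 1 or 3 cells with most UMIs of a gene in each class, an alternative chosen after seeing the data, also left 6. *Gzmk* stayed the gene highest in CD8 T-like cells under all of these. The median share of *Ifng* UMIs in NK-like cells was 21.8%; it was 18.1% with no doublets removed and 18.7% with the stricter gate. The share in CD8 T-like cells was 8.43%, and 6.84%, 5.12% and 11.5% with no doublets removed, the stricter gate and mixed cells assigned. In CD4 T-like cells it was 14.4%, and 12.2%, 9.99% and 22.2% under the same alternatives. With the stricter gate it was 1.08% in γδ T-like cells (2.90% as reported) and 0.160% in ILC-like cells (0.561%). Fewer cells pass the stricter gate (329 NK-like, 509 CD8 T-like) and more are classed when mixed cells are assigned. Detection follows depth: the median share with *Gzma* was 50.7% of NK-like cells at 1000 UMIs and 65.7% without thinning, and 35.8% and 52.5% of CD8 T-like cells. *Prf1* was detected in 30.9% of NK-like cells at 1000, 43.4% at 2000 UMIs and 70.0% without thinning, and *Ifng* in 25.6%, 38.8% and 54.6%. Of 300 median levels recomputed, 9 moved by over 1.5 times, 8 of them in ILC-like or γδ T-like cells, where counts were low, and 1 for *Gzma* in CD8 T-like cells, which was 1311 CPM as a mean over cells and 2167 CPM as a sum. Without the level filter and with 1 CPM added, the counts of 2-fold genes were 404, 106, 256 and 356 in place of 374, 97, 241 and 253, and the members called were the same in number. Leaving out each sample in turn, also chosen after seeing the data, left 6 or 7 genes highest in NK-like cells (*Nkg7* joined without sample 4) and *Gzmk* in CD8 T-like cells. A gene highest in 4 of 4 samples is also highest in any 3 of them, so this alternative could add genes but lose none. A 2-fold call could likewise be lost only through the level filter, so these counts do not show how stable the results are. The members called stayed 8, 4 and 1 for NK-like over CD4 T-like, NK-like over CD8 T-like and CD8 T-like over NK-like cells and were 5 to 7 for CD8 T-like over CD4 T-like cells, with 301 to 389 genes in place of 253 called in CD8 T-like over NK-like cells. No paired analysis was possible because no result comes from a test and the labels put no sample in a group; ratios between classes were taken within each sample.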
